A study of Caenorhabditis elegans with 6 samples.

Results

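Cuticle collagens are the main structural proteins of the worm's exoskeleton. The hypodermis secretes a new cuticle at every moult, and collagen genes are switched on in waves within each moulting cycle, some of them in 1 larval stage or in the adult only. Each chain carries an N-terminal domain, is cut by a proprotein convertase, and folds with other chains into a triple helix built on regularly spaced glycines. Many of these genes bear the name col, and they include the adult-specific genes col-19 and col-7.

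The col genes described here are those with a lower mean in TGQ than in WT animals, and 81 of the 103 col genes in the deposited table of 5792 genes met this rule. They were chosen by the very values described here, the signal of 3 TGQ and 3 WT samples, so the TGQ against WT differences of these 81 genes are given as a description, with no test. The other 22 col genes had a higher TGQ mean. Of 156 annotated col genes, 53 were not in the table and are not analysed here.

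The TGQ samples came from whole animals of a strain labelled TGQ, and the WT samples from whole animals of strain SJ4100, a name used for worms that carry a GFP reporter of the mitochondrial chaperone gene hsp-6. Both groups were fed OP50 bacteria from hatching at 20 °C and collected as L4 larvae, the stage before the adult. How TGQ was derived, whether it carries the reporter, and whether the 3 samples of a group are separate cultures goes unstated in the labels, so the errors and p-values below reflect how far these samples differ, and that spread could be technical. The series title places the comparison in a study of inherited mitochondrial DNA increase, the mitochondrial stress response and aging.

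The values are an expression signal whose unit is not named, with unknown depth, and the table holds only genes with an adjusted p-value of at most 0.0499 in the authors' deposited table. Over all genes the signal summed to 287133 ± 5933 (SD, n = 3) in TGQ and 335149 ± 12437 in WT samples. Markers of other cells moved with the groups. By limma on log2(signal + 1), at an adjusted p under 0.05, 45.6% of the 5540 genes tested were called higher and 44.6% lower in TGQ, and the marker counts stand beside these shares. All 17 oocyte and eggshell markers were in the table and called lower in TGQ, and they summed to between 291 and 451 in TGQ samples and between 1357 and 1842 in WT samples. The 6 yolk protein genes, made by the adult intestine, summed to between 323 and 633 in TGQ samples and between 1852 and 3617 in WT samples, and 30 of 33 sperm markers, all 30 called lower, summed to between 3548 and 4389 in TGQ samples and between 10813 and 13397 in WT samples. Of 20 hypodermis markers that are not collagens, 14 were tested, 11 were called higher and 2 lower, and they summed to between 1008 and 1128 in TGQ samples and between 383 and 507 in WT samples. Markers of intestine (4 of 11), muscle (5 of 12) and neurons (5 of 14) were thinly covered, and 13 of these 14 were called higher. No listed marker in the table was at 0 in all samples. The part of tissue makeup in the collagen values was not tested, and neither was that of timing within the L4 stage. In whole animals fewer cells of a type and less RNA per cell cannot be told apart.

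Together the 81 genes had a summed signal of 22058, 19324 and 19760 in the TGQ samples and of 55554, 52869 and 50690 in the WT samples. The TGQ sum was 0.384 of the WT sum (20381 ± 1469 in TGQ and 53038 ± 2436 in WT, SD, n = 3). The same genes made up 7.09% ± 0.37 of the table's total in TGQ and 15.8% ± 0.33 in WT. This total covers only the selected genes and was itself lower in TGQ. The 22 col genes with a higher TGQ mean summed to 20786 ± 2652 in TGQ and 11122 ± 1080 in WT.

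The size of the difference varied widely among the 81 genes. The TGQ mean was under 0.125 of the WT mean for 13 genes, between 0.125 and 0.25 for 17, between 0.25 and 0.5 for 15, and above 0.5 for 36. On the log2(signal + 1) scale the median change was -1.12 over the 80 genes that passed the filter on low values. Over all 5540 genes tested, which changed in both directions, it was -0.22. The 80 genes were chosen for a lower TGQ mean, so nothing is read from the difference between these medians. The filter was passed by all but col-123, whose signal was between 0.04 and 0.27 in TGQ samples and between 0.35 and 1.38 in WT samples. In 77 of the 81 genes every TGQ sample lay under every WT sample, and the same held for 47.0% of all genes in the table. Since the genes were selected on this difference, nothing is read from that count. The groups overlapped in col-39, col-111, col-146 and col-172.

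**Figure D1:**
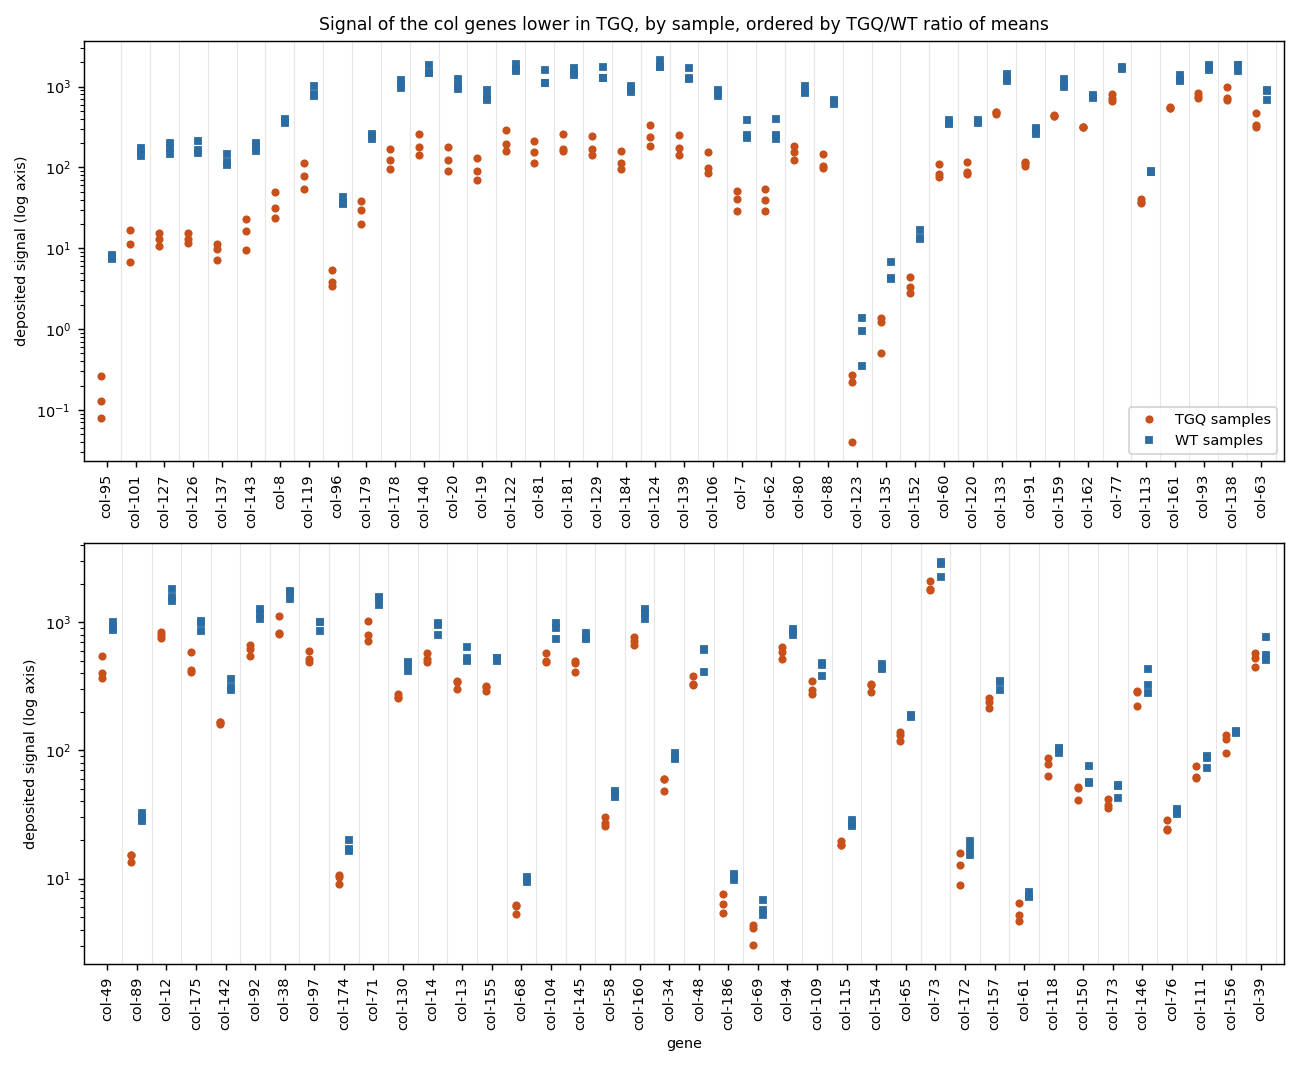
Deposited signal (log axis) of each of the 81 col genes in the 3 TGQ samples (circles) and the 3 WT samples (squares), ordered from the lowest to the highest TGQ over WT ratio. The groups stand furthest apart on the left of the upper row, and they overlap in col-39, col-111, col-146 and col-172.

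The ratios of TGQ to WT left a gap between 0.259, the value of col-120, and 0.369, that of col-133. A line at 0.3, drawn after the values were seen, leaves 31 genes below it and 50 above it. The 31 genes summed to 2742 ± 774 in TGQ and 20707 ± 2665 in WT (SD, n = 3), a ratio of 0.132. The other 50 genes summed to 17639 ± 710 in TGQ and 32331 ± 732 in WT, a ratio of 0.546. The 31 genes held 13.3% ± 2.77 of the summed signal of the 81 genes in TGQ and 38.9% ± 3.27 in WT. These 31 genes were chosen for a low ratio. Nothing is read from their smaller share in TGQ or from their lower summed ratio.

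**Figure D2:**
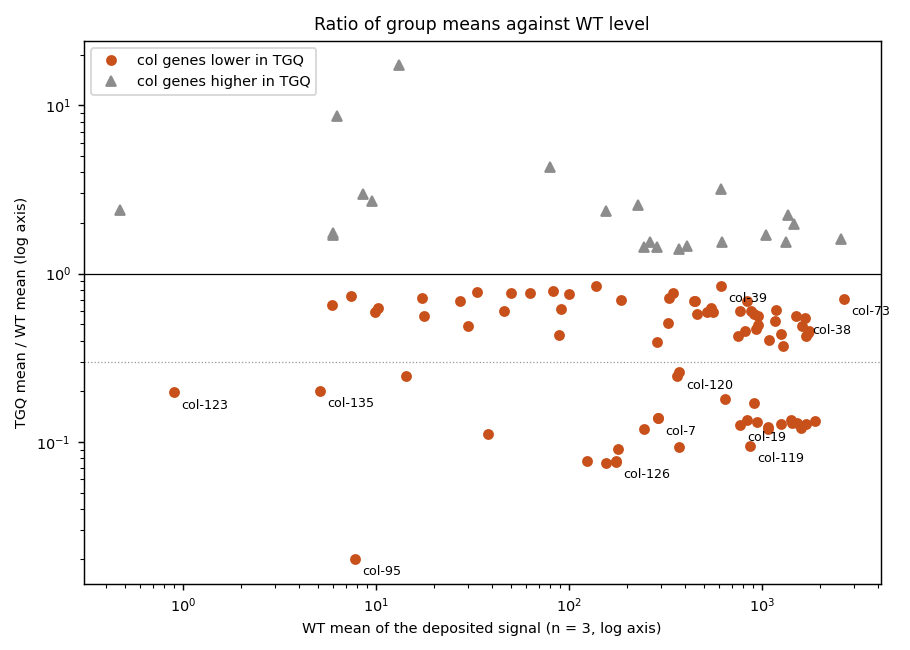
TGQ mean over WT mean against the WT mean of the deposited signal, both on log axes, for the 81 col genes lower in TGQ (circles) and the 22 higher in TGQ (triangles). The solid line marks a ratio of 1 and the dotted line 0.3, with 31 genes below the dotted line and col-120 at 0.259 just under it.

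The best known adult collagen genes were among the 31. The signal of col-19, the standard marker of the adult hypodermis, was 131.1, 70.2 and 91.1 in the TGQ samples and 895, 741 and 680 in the WT samples. The highest TGQ sample was far below the lowest WT sample, and the log2 change was -3.01 (SE 0.20). The adult gene col-7 had 50.95, 28.9 and 40.6 in the TGQ samples and 391, 249 and 233 in the WT samples, with a log2 change of -2.82 (SE 0.23). In the authors' annotation, 3 col genes of the table had the COL-19 protein as their closest Swiss-Prot entry, namely col-19 itself, col-140 and col-184, and their ratios lay between 0.122 and 0.131. The signal of col-140 was 262, 141 and 177 in the TGQ samples and 1834, 1493 and 1453 in the WT samples.

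By log2 change the 10 lowest genes were col-101, col-143, the neighbours col-126 and col-127, col-8, col-119 and col-137, col-140, and the neighbours col-178 and col-179, all of them cuticle collagen genes of 283 to 351 coding residues. For col-101 the signal was 16.8, 6.72 and 11.4 in the TGQ samples and 137, 175 and 156 in the WT samples, a log2 change of -3.71 (SE 0.26). It lies on chromosome IV at 325435 to 327020 on the minus strand (positions here and below are from the WBcel235 annotation, since the labels name no build). Without TGQ replicate 2, its lowest TGQ sample, the change was -3.40. The signal of col-143 was 23.2, 9.48 and 16.2 in the TGQ samples and 160, 200 and 181 in the WT samples. These 2 genes shared an order of the samples, with TGQ replicate 2 lowest and WT replicate 2 highest. The signal of col-119 was 113.03, 54.4 and 78.1 in the TGQ samples and 1007, 811 and 773 in the WT samples, and that of col-8 was 49.2, 23.6 and 31.7 in the TGQ samples and 395, 371 and 354 in the WT samples. In both genes TGQ replicate 1 was the highest and TGQ replicate 2 the lowest TGQ sample. The signal of col-137 was 11.3, 7.26 and 9.91 in the TGQ samples and 145, 118 and 108 in the WT samples.

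A band of 16 genes had ratios between 0.111 and 0.140, a grouping made after the values were seen. It held col-7, col-19, col-20, col-62, col-81, col-96, col-106, col-122, col-124, col-129, col-139, col-140, col-178, col-179, col-181 and col-184. Their means spread from 4.22 to 250.6 in TGQ and from 38.1 to 1880 in WT. Both low ends were those of col-96, and the next lowest means were those of col-179, at 29.2 and 245. The ratios are alike because the band was drawn on them, so nothing is read from that likeness. TGQ replicate 1 was the highest TGQ sample, TGQ replicate 2 the lowest TGQ sample and WT replicate 1 the highest WT sample in all 16. One of the most abundant of them, col-122, had 292.5, 161 and 194 in the TGQ samples and 1924, 1629 and 1543 in the WT samples. For col-181 the signal was 258, 161 and 171 in the TGQ samples and 1720, 1483 and 1377 in the WT samples.

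Above the band, the ratios of the remaining genes under 0.3 were spread out. They were 0.170 for col-80, 0.181 for col-88, 0.197 for col-123, 0.202 for col-135, 0.245 for col-152, 0.247 for col-60 and 0.259 for col-120. The adult collagen gene col-120 had 118, 86.6 and 82.4 in the TGQ samples and 355, 388 and 368 in the WT samples, a log2 change of -1.96 (SE 0.13). It differed from col-119, its neighbour in name and also known from adults, in having WT replicate 1 as its lowest WT sample. The signal of col-60 was 109, 84.0 and 75.3 in the TGQ samples and 383, 359 and 342 in the WT samples. The weakest of these genes that passed the filter, col-135, had 1.21, 1.39 and 0.50 in the TGQ samples and 6.81, 4.22 and 4.34 in the WT samples.

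The lowest ratio of all, 0.0201, belonged to the weakly expressed gene col-95, with a signal of 0.13, 0.08 and 0.26 in the TGQ samples and 7.67, 8.30 and 7.36 in the WT samples. Because 1 is added before the logarithm, its log2 change of -2.93 (SE 0.13) understates this ratio, and with a pseudocount of 0.1 it was -4.999.

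The 10 genes with the highest WT signal were col-73, col-124, col-138, col-93, col-122, col-77, col-38, col-12, col-140 and col-181. Among the 81 genes, 79 encode 278 to 394 residues, so gene length varies little in this ranking, although the unit is not known to be per length. The top gene, col-73, had 2088, 1832 and 1798 in the TGQ samples and 2242, 2939 and 2855 in the WT samples, a log2 change of -0.48 (SE 0.11). It stood far above every other member in TGQ, where the next highest mean was that of col-38. The signal of col-124 was 332, 183 and 236 in the TGQ samples and 2143, 1772 and 1725 in the WT samples, so a gene next to col-73 in the WT ranking was at 251 ± 75.2 in TGQ, against 1906 ± 159 for col-73. The signal of col-93 was 721, 774 and 828 in the TGQ samples and 1866, 1751 and 1609 in the WT samples. That of col-77 was 800.1, 715 and 663 in the TGQ samples and 1640, 1738 and 1710 in the WT samples. Their ratios were close, 0.445 for col-93 and 0.428 for col-77, but TGQ replicate 1 was the lowest TGQ sample of col-93 and the highest of col-77.

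Collagen genes that have been studied as genes of the L4 cuticle, col-38, col-49, col-63 and col-138, lay together in the middle of the range, with ratios between 0.457 and 0.547. The signal of col-138 was 984, 728 and 685 in the TGQ samples and 1544, 1869 and 1828 in the WT samples. For col-38 it was 1116, 819 and 807 in the TGQ samples and 1521, 1763 and 1727 in the WT samples. The signal of col-49 was 544, 405 and 367 in the TGQ samples and 865, 924 and 1006 in the WT samples, and for col-63 it was 467, 336 and 316 in the TGQ samples and 679, 900 and 870 in the WT samples. In all 4 genes TGQ replicate 1 was the highest and TGQ replicate 3 the lowest TGQ sample, and WT replicate 1 was the lowest WT sample. Their sum was 3111, 2287 and 2175 in the TGQ samples and 4608, 5455 and 5431 in the WT samples.

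The larval collagen gene col-14 had 571, 516 and 495 in the TGQ samples and 797, 983 and 949 in the WT samples, a ratio of 0.580. The signal of col-34 was 60.0, 48.5 and 59.7 in the TGQ samples and 86.5, 88.8 and 96.2 in the WT samples, a ratio of 0.620. The groups did not overlap in either gene. Relative to its mean, the spread between TGQ samples was smallest in col-162 among the 81 genes, with 314, 318 and 320.2 in the TGQ samples and 789, 743 and 716 in the WT samples.

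Genes just inside the rule were close to equal in both groups. The signal of col-39 was 448, 525 and 573 in the TGQ samples and 768, 551 and 512 in the WT samples, a ratio of 0.844 that rests on WT replicate 1. Without that sample its log2 change was -0.05, in place of -0.23 (SE 0.15), and after quantile normalization it was 0.25. For col-156 it was 94.8, 132 and 122 in the TGQ samples and 137, 138 and 141 in the WT samples, a ratio of 0.840. The next were col-111, col-76 and col-146, with ratios of 0.794, 0.774 and 0.771, and the log2 change of col-146 also turned, to 0.01, after quantile normalization. Just outside the rule stood col-42, col-103, col-170, col-147 and col-17, with ratios of 1.41, 1.44, 1.44, 1.46 and 1.54. No col gene in the table had a ratio between 0.844 and 1.41. The table holds only genes with a low adjusted p-value from the authors, which disfavours ratios near 1. Nothing is read from this gap.

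The order of the replicates within a group also differed among the genes, and the rule used only the group means of these values. The line at 0.3, however, was drawn on the same values. Among the 31 genes with a ratio under 0.3, TGQ replicate 1 was the highest TGQ sample in 28 and TGQ replicate 2 the lowest in 26, and WT replicate 1 was the highest WT sample in 27. Their sum was 3599, 2095 and 2530 in the TGQ samples and 23729, 19700 and 18691 in the WT samples. The median coefficient of variation of these genes was 30.02% in TGQ and 12.4% in WT. Among the other 50 genes TGQ replicate 1 was highest in 22 and lowest in 21, and the median coefficient of variation was 9.40% in TGQ and 8.56% in WT. In TGQ, replicate 1 exceeded replicate 2 by a median factor of 1.74 in the 31 genes and of 1.01 in the 50. Over all genes of the table the signal summed to 293887, 284750 and 282762 in TGQ and to 349508, 328147 and 327792 in WT samples. Replicate 1 was thus the highest of its group in these totals too. The share of all genes with each order was not counted, so the order cannot be called particular to the 31 genes. All genes were measured in the same 3 samples of a group, so they are not separate observations of a replicate.

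The 22 of the 50 genes with TGQ replicate 1 on top included all 4 L4 genes named above, and in 18 of the 22 WT replicate 1 was the lowest WT sample. The 21 genes with TGQ replicate 1 at the bottom included col-12, col-13, col-92, col-93 and col-94, and in 12 of the 21 WT replicate 1 was the highest WT sample. The signal of col-12 was 749, 794 and 839 in the TGQ samples and 1830, 1571 and 1468 in the WT samples. Among the col genes with a higher TGQ mean, TGQ replicate 1 was the lowest TGQ sample in 20 of 22. The markers of other cells also differed between replicates: the yolk protein genes summed to 633, 323 and 364 in the TGQ samples and to 3617, 1852 and 2142 in the WT samples, and the oocyte and eggshell markers to 451, 291 and 309 in the TGQ samples and to 1842, 1380 and 1357 in the WT samples. Replicate 1 was the highest of its group in both lists, as in most of the 31 genes, and also in the sums of the sperm, muscle and neuron markers. The hypodermis markers that are not collagens summed to 1128, 1039 and 1008 in the TGQ samples and to 383, 446 and 507 in the WT samples, and the intestine markers to 506, 503 and 490 in the TGQ samples and to 477, 501 and 542 in the WT samples. In these lists TGQ replicate 1 was again the highest TGQ sample, but WT replicate 1 was the lowest WT sample. The part of any of these cells in the collagen order was not tested.

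**Figure D3:**
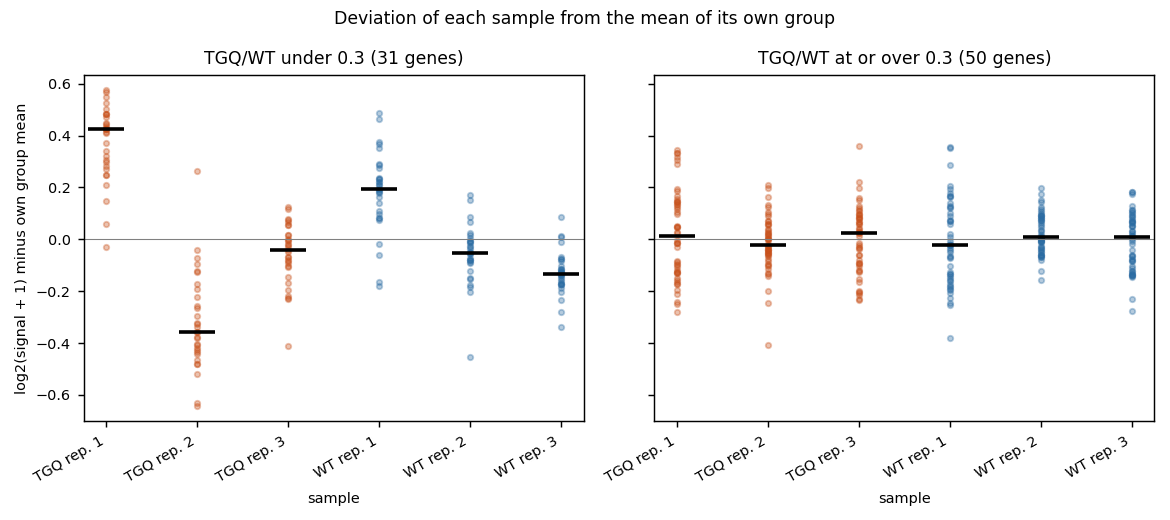
Deviation of each sample from the mean of its own group in log2(signal + 1), for the 31 col genes with a TGQ over WT ratio under 0.3 (left) and the 50 at or over 0.3 (right); points are genes and bars are medians. On the left the median of TGQ replicate 1 is 0.42 and that of TGQ replicate 2 is -0.36. All medians on the right lie between -0.02 and 0.02.

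In structure the 81 genes were alike. The authors' annotation gives 79 of them the nematode cuticle collagen N-terminal domain and 76 both this domain and the collagen triple helix repeat, against 17 and 16 of the 22 col genes with a higher TGQ mean. The median coding length was 302 residues in the 81 genes and 300.5 in the 22. The exceptions in length were col-135 with 660 residues and col-76 with 499. Of the 81 genes, 49 (60.5%) had 2 coding exons, against 11 of the 22 and 11.5% of all annotated protein-coding genes. They were spread over all 6 chromosomes, with 9 on chromosome I, 11 on II, 10 on III, 23 on IV, 18 on V and 10 on X. Among the 31 genes with a ratio under 0.3, 12 were on chromosome IV, which holds 41 of the 156 annotated col genes.

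Grouping by the closest Swiss-Prot protein in the authors' annotation gave some families that held both large and small differences and others with a narrow range. All 8 col genes closest to COL-155 were lower in TGQ, with ratios between 0.134 for col-139 and 0.721 for col-157. All 4 closest to COL-91, namely col-91, col-130, col-161 and col-162, were lower, with ratios between 0.393 and 0.577. Of 9 genes closest to COL-40, 7 were lower, with ratios between 0.119 and 0.712, and 2 were higher. Of 10 closest to COL-34, 6 were lower, with ratios between 0.0948 and 0.620, and 4 were higher.

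Many col genes sit side by side, and 24 of the 81 have another col gene as the adjacent protein-coding gene. In 16 neighbouring pairs both genes were in the table. Both were lower in TGQ in 10 pairs, both higher in 3, and the neighbours had opposite directions in 3. Since 81 of the 103 col genes in the table were lower, pairs with both lower are common at any position. Nothing is read from these counts. The signal of some pairs cannot be assigned safely, because near-identical copies may share reads.

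The clearest such pair is col-126 and col-127, which point towards each other across 510 bases on chromosome IV (11263401 to 11264397 on the plus strand and 11264908 to 11266190 on the minus strand) and have the same closest protein in the authors' annotation. The signal of col-126 was 15.7, 11.6 and 13.2 in the TGQ samples and 211, 166 and 151 in the WT samples. That of col-127 was 15.7, 10.7 and 13.2 in the TGQ samples and 200, 176 and 147 in the WT samples. The values of the pair were equal in 2 of 6 samples, so the pair may be a single measurement. The pair col-7 and col-62 on chromosome I (7401132 to 7402761 on the plus strand and 7403291 to 7404374 on the minus strand) had nearly the same signal too, with 40.2 ± 11.05 and 40.6 ± 12.4 in TGQ and 291 ± 87.0 and 291 ± 91.9 in WT. The pair col-178 and col-179 on chromosome X, each with 283 coding residues, had ratios of 0.120 and 0.119 at different levels, 129 ± 36.1 and 29.2 ± 8.96 in TGQ and 1075 ± 130 and 245 ± 18.3 in WT.

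Other neighbours differed. On chromosome II, col-17, col-20 and col-73 follow each other on the minus strand within 4866436 to 4873129. Between col-17, with a ratio of 1.54, and col-73, with 0.712, lay col-20 with 0.123. In the authors' annotation col-17 and col-73 have the same closest protein, so the split of reads between these 2 genes is uncertain as well. The signal of col-20 was 178, 91.5 and 125 in the TGQ samples and 1248, 1022 and 942 in the WT samples. The larval gene col-17 had 951 ± 40.3 in TGQ and 618 ± 111 in WT. On chromosome V, col-144, col-145 and col-10, each with 294 coding residues, follow each other within 9159586 to 9165307. The middle gene col-145 had 411, 495 and 479 in the TGQ samples and 755, 823 and 741 in the WT samples, while col-144 and col-10 had ratios of 1.96 and 2.22. On chromosome II, col-39 with a ratio of 0.844 lies next to col-80, with 154 ± 30.7 in TGQ and 907 ± 95.2 in WT. The 3 neighbours col-92, col-93 and col-94 on chromosome III, each with 304 coding residues, had ratios of 0.521, 0.445 and 0.690. The neighbours col-13 and col-12, a pair of closely related larval collagen genes, had ratios of 0.590 and 0.489. The annotated spans of col-159 and col-160 overlap by 1196 bases, so the split of reads between them is uncertain, and their ratios were 0.403 and 0.606.

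**Figure D4:**
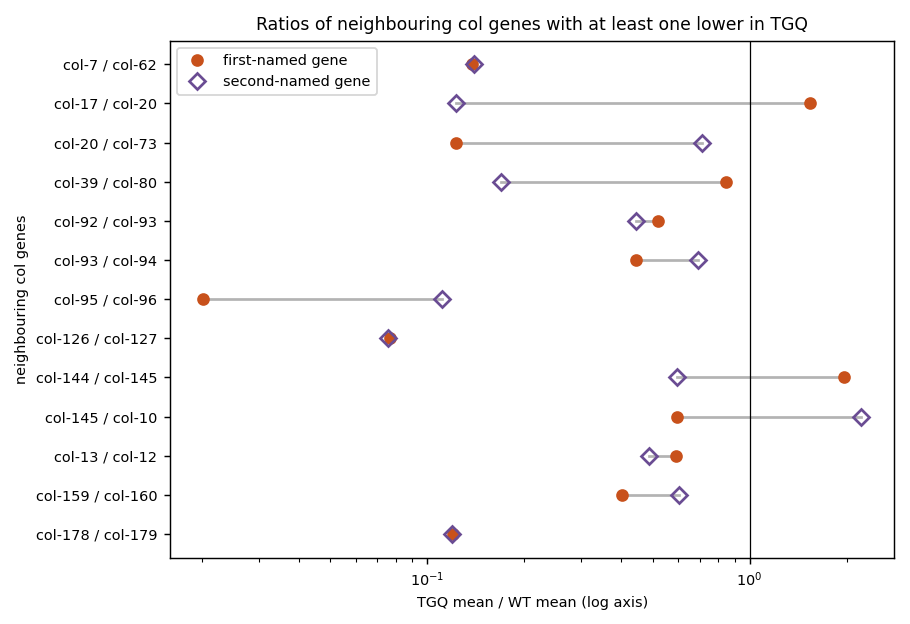
TGQ mean over WT mean (log axis) of the 13 pairs of neighbouring col genes that are both in the table and include a gene lower in TGQ; circles are the gene named first and diamonds the gene named second. The pairs col-7 and col-62, col-126 and col-127, and col-178 and col-179 coincide, while col-20 at 0.123 lies between neighbours at 1.54 and 0.712.

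The other genes that build and shape the cuticle were counted in 6 lists of 129 genes, of which 63 were in the table and 61 were tested with limma on log2(signal + 1), with Benjamini-Hochberg adjustment over the 5540 genes tested and a call at an adjusted p under 0.05. Of the 61 genes, 49 were called higher and 9 lower in TGQ, and their median log2 change was 0.72. Over all genes tested, 45.6% were called higher and 44.6% lower, with a median of -0.22. The table was selected on these samples, so the calls are not independent evidence.

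Cuticle collagens named for a body shape went both ways. Of 22 listed, 12 were tested, 8 were called higher and 3 lower. The 6 genes dpy-2, dpy-3, dpy-7, dpy-8, dpy-9 and dpy-10, whose collagens form the furrows that ring the worm, all rose. The signal of dpy-10 was 122 ± 7.41 in TGQ and 43.6 ± 10.1 in WT (log2 1.49, SE 0.16, adjusted p = 6.62e-05, limma). The largest rise was that of dpy-17, with 56.8 ± 5.30 in TGQ and 8.81 ± 0.71 in WT, and bli-1, a collagen of the adult cuticle's struts, rose 1.58-fold. The 3 falls were those of bli-6, at 593 ± 109 in TGQ and 1167 ± 61.8 in WT (log2 -0.99, SE 0.12, adjusted p = 0.000125, limma), dpy-4 and dpy-5. The calls of dpy-4 and dpy-5 (adjusted p = 0.025 and 0.0457, limma) were lost after quantile normalization, with adjusted p-values of 0.371 and 0.741 by limma. Without TGQ replicate 2 or 3, or WT replicate 2 or 3, dpy-4 had adjusted p-values between 0.0579 and 0.103 by limma, and dpy-5 was lost without any sample but WT replicate 1, with values between 0.0605 and 0.173. The abundant collagen gene dpy-13 had 1396 ± 17.1 in TGQ and 1699 ± 337 in WT and was not called (adjusted p = 0.0818, limma), but it was called lower without WT replicate 1 and under the authors' scaling (adjusted p = 0.000232 and 0.0187, limma). Also not called was cle-1, the single tested gene of the basement membrane collagen list (adjusted p = 0.0851, limma), which was called lower under the authors' scaling (adjusted p = 0.025, limma).

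Of 30 genes for collagen hydroxylation, folding, export and cleavage, 12 were tested, 7 were called higher and 4 lower. The prolyl 4-hydroxylase gene phy-2 had 69.5 ± 8.35 in TGQ and 38.5 ± 3.47 in WT (log2 0.83, adjusted p = 0.000341, limma). The protease gene dpy-31, whose product cleaves cuticle collagen, rose 1.94-fold, and nas-37, a protease gene needed to shed the old cuticle, rose 2.00-fold. The subunit gene pdi-2, which serves the hydroxylases, rose 1.46-fold. The genes that fell were phy-3, nas-7, hsp-4 and cyn-7. The hydroxylase gene phy-3 had 2.74 ± 0.909 in TGQ and 7.37 ± 1.01 in WT, and let-268 was not called (adjusted p = 0.199, limma). After quantile normalization the log2 change of hsp-4 turned to 0.08 and the call of nas-7 was lost (adjusted p = 0.0504, limma). Without TGQ replicate 2 or 3 or WT replicate 3 the call of hsp-4 was lost, with adjusted p-values between 0.0635 and 0.0986, and without TGQ replicate 1 that of nas-7, at 0.0682 (limma).

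Of 35 cuticulins and related genes, which encode insoluble cuticle proteins with zona pellucida domains, 14 were tested, 12 were called higher, and cut-4 and cutl-15 were the 2 called lower. The largest rises were those of cutl-3, cutl-10, cutl-16 and cutl-9, all at low signal. The signal of cutl-10 was 8.12 ± 0.859 in TGQ and 2.69 ± 0.877 in WT.

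Of 24 epidermal transcription factors and timing regulators, 14 were tested and all 14 were called higher, with log2 changes between 0.48 and 1.47 (13 of 14 without WT replicate 3). The largest were those of myrf-1, a membrane-bound factor needed for moulting, the nuclear receptor genes nhr-25 and nhr-85, and mab-10, whose product works with the zinc finger factor LIN-29. The signal of myrf-1 was 45.4 ± 3.28 in TGQ and 15.8 ± 2.73 in WT (log2 1.47, adjusted p = 2.95e-05, limma). The gene lin-29, singled out after its values were seen because LIN-29 is known to switch on col-19, had 20.7 ± 1.62 in TGQ and 10.6 ± 0.644 in WT (log2 0.90, adjusted p = 0.000193, limma), while col-19 stood at 97.5 ± 30.95 in TGQ and 772 ± 111 in WT.

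Of 13 genes of the DBL-1 pathway, a BMP signal that sets body size and acts on cuticle collagen genes, 8 were tested and all 8 were called higher, with log2 changes between 0.48 and 0.89. They included the ligand gene dbl-1 at 6.89 ± 0.701 in TGQ and 4.51 ± 0.162 in WT, the receptor gene daf-4 and the receptor-binding gene sma-10. The same TGQ samples had a higher sum of the hypodermis markers that are not collagens, given above. Highest among these markers in TGQ were wrt-10, with means of 200 in TGQ and 62.3 in WT, and noah-2, with 167 and 56.3. The part of this sum in the rises was not tested, and neither was that of timing within the L4 stage.

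**Figure D5:**
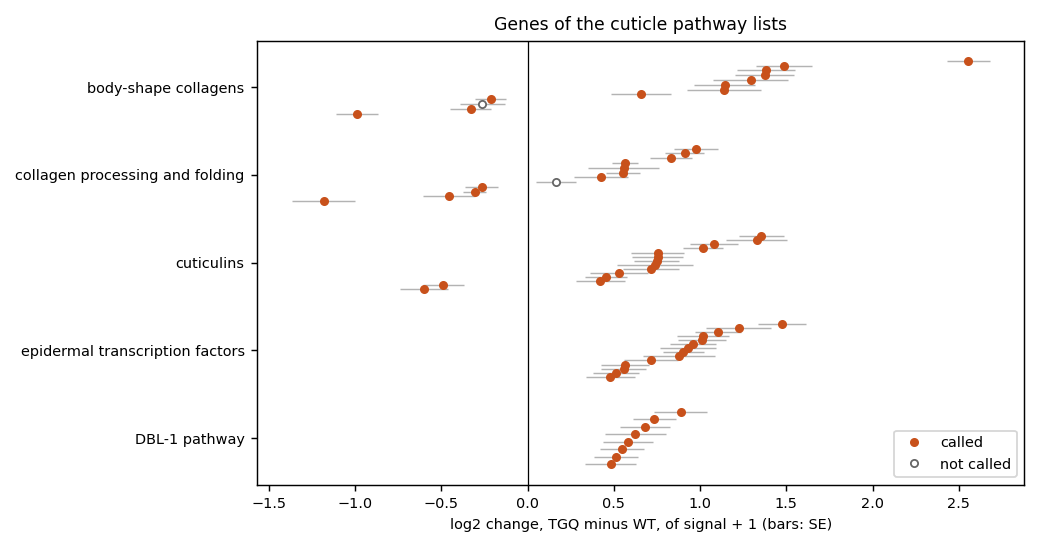
Log2 change, TGQ minus WT, in log2(signal + 1), with its SE, for the tested genes of 5 lists (the sixth, of basement membrane collagens, has 1 tested gene). Filled points were called at an adjusted p under 0.05 by limma; all 14 transcription factor and all 8 DBL-1 pathway genes lie to the right of 0.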

How the data were processed

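Whole-animal RNA of L4 worms was sequenced as polyA libraries in 3 TGQ and 3 WT samples, as read pairs of 150 bases, per the labels' protocols. TopHat2 and RSEM were used, per the submitters' processing notes. Versions, build, annotation and the test behind the deposited p-values were not given in the sources used here. The deposited table of 5792 genes holds an expression signal per sample, a ratio of groups, its log2 fold change and adjusted p-values, per the file headers. No unit is named, the values are not whole counts and depth is unknown, so no counting interval can be given.

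Group means and ratios were computed from the deposited signal. For tests, log2(signal + 1) was fitted with limma 3.58.1 in R 4.3.3 (group term, empirical Bayes with trend and robust settings) over the 5540 genes whose signal reached 1 in 3 or more samples, with Benjamini-Hochberg adjustment. The procedure was run on simulated data with far fewer changed genes than were called here, so that run does not bear on these calls. The authors' annotation columns gave domains and closest proteins, and Ensembl 115 (WBcel235) gave positions, neighbours and coding lengths. The alternatives were a pseudocount of 0.1, no filter, quantile normalization, the scaling implied by the deposited fold changes, group medians, a replicate block, and leaving out each sample.

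The genes and all lists were chosen with earlier results of these data known. Named col genes were the 10 lowest by log2 change, the 10 highest in WT, the 5 smallest differences, the 5 just outside the rule, neighbours and close copies, and genes with a known stage; in other lists, up to 4 called genes with the largest change and every gene of lists with at most 5 tested. Genes named outside this rule, such as those that make up a count of 5 or fewer, the furrow collagens, the families and col-95, were chosen after their values were seen.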

Additional observations from a re-analysis of the deposited data

How the results depend on the processing

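The count of 81 col genes lower in TGQ also came from group medians, from the sign of the authors' deposited fold change and from each set of 5 samples. Quantile normalization left 79. The table was selected on these samples, so this stability is not independent evidence. With quantile normalization the ratio of summed signal was 0.488, in place of 0.384, and the median log2 change was -0.73, in place of -1.12; leaving out a sample gave 0.368 to 0.394 and -1.18 to -1.03. The direction turned for col-39 (0.25), col-146 (0.010) and hsp-4 (0.083) after quantile normalization. Of the cuticle lists, 49 genes were called higher, between 45 and 51 under all alternatives, and 9 lower, but 5 after quantile normalization, 11 under the authors' scaling and 6 to 10 with a sample left out. The median log2 change of all genes was -0.22, against -0.10 after quantile normalization and -0.35 under the authors' scaling, which gave 2281 genes called higher and 2873 lower, in place of 2527 and 2471. The cause of these shifts was not tested.

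The fit took the samples as unpaired, and the labels do not say whether same-numbered samples were handled together. Same-numbered samples correlated in their deviations at 0.247, -0.0115 and 0.160, and not every sample correlated best with its own number. The value for replicate 1 was the highest between any TGQ and WT sample. With groups of 3 these values cannot settle whether the numbers pair the samples. With a replicate block, 2531 genes were called higher and 2606 lower, with 49 higher and 10 lower in the cuticle lists (dpy-13 was then called lower, adjusted p = 0.0443, limma), and the median log2 change of the col genes stayed at -1.12. Depth is unknown, and groups of 3 are too small for a check of single outlying samples.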
